A study of Mus musculus with 12 samples.

Results

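The genes that build triglyceride from glycerol 3-phosphate were followed across white and brown adipose tissue (WAT and BAT), liver and skeletal muscle of mice. The rows of the expression table named Gpam, Agpat2, Lpin1, Lpin2, Lpin3, Dgat1, Dgat2 and Mogat1 were taken, which are 8 of its 22276 gene symbols. Male C57BL/6J mice received either normal chow diet (NCD) or high-fat diet (HFD) from 8 wk of age, and vehicle (veh) or narciclasine (ncls), a plant alkaloid, was gavaged weekly from 10 wk until 17 wk. The 3 groups sequenced were chow with vehicle (NCD-veh), HFD with vehicle (HFD-veh) and HFD with narciclasine (HFD-ncls). Each organ gave 1 library per group, 12 in all, and the number of mice behind a library is not given in the sources used here. Where 3 values follow an organ below, they are in this order of groups. The muscle was the quadriceps, and the chow-fed ncls group was not analysed here.

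In most cells, triglyceride is made by the glycerol phosphate pathway. A glycerol-3-phosphate acyltransferase (GPAT) adds the first acyl chain, an acylglycerol-phosphate acyltransferase (AGPAT) adds the next to give phosphatidate, a lipin removes the phosphate to give diacylglycerol, and a diacylglycerol acyltransferase (DGAT) adds the last chain. Monoacylglycerol acyltransferases (MOGAT) reach diacylglycerol by a separate route, from monoacylglycerol. Gpam encodes the mitochondrial GPAT1, Agpat2 is the AGPAT whose loss causes lipodystrophy, Lpin1 to Lpin3 encode the lipins, and Dgat1 and Dgat2 encode unrelated DGAT proteins. Lpin1 also has a role in the nucleus as a coactivator of fatty acid oxidation genes in liver.

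All 8 members are annotated as protein-coding in the mm9 genome. Mogat1 lies at chr1:78507566-78534748, Agpat2 at chr2:26448577-26459937, Lpin3 at chr2:160706406-160731738 and Dgat2 at chr7:106302173-106331223. Lpin1 lies at chr12:16542475-16596576, Dgat1 at chr15:76332445-76342381, Lpin2 at chr17:71531900-71599157 and Gpam at chr19:55142142-55201824. The 3 lipin genes are thus on 3 different chromosomes.

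The promoters of 3 members are shown because these members had the widest diet or ncls ratios given below, Lpin1 and Mogat1 in liver and Gpam in liver and muscle. RefSeq start sites (table of build GRCm38.p6) were matched for 6 of the 8 members, and Dgat1 and Dgat2 had no entry. The 250 bases before each start were placed on mm9 by exact match, and bases within an annotated exon of the gene were left out. Each sequence reads 5′ to 3′ on the gene's strand, and capitals mark AGGTCA (the half-site bound by many nuclear receptors) or GGGCGG (the GC box), on either strand.
Lpin1, chr12:16617773-16618022, minus strand: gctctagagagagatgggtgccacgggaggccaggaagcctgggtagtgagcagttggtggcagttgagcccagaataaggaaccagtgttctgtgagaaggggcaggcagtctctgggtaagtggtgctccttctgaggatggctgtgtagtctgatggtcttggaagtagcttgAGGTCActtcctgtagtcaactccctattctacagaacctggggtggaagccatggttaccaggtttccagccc
Mogat1, chr1:78507385-78507565, plus strand: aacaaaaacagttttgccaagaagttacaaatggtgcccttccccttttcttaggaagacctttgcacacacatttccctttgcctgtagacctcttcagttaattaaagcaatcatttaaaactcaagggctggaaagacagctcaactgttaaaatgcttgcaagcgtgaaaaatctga
Gpam, the second of its start sites, chr19:55173968-55174217, minus strand: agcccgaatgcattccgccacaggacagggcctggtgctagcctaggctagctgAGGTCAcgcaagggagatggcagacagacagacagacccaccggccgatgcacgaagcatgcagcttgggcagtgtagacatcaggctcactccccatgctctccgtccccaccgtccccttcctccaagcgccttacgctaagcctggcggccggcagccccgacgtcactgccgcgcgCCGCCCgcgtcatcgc
The 4 motifs searched on both strands were AGGTCA, the E-box CACGTG, the CCAAT box and the GC box GGGCGG. Matches in the printed windows do not overlap. AGGTCA was present in 14.02% of 32851 RefSeq promoters, CACGTG in 6.02%, CCAAT in 33.8% and GGGCGG in 32.7%. Of the 2 start sites of Gpam, the one shown has all 250 bases outside annotated exons, and the other held 1 CCAAT and 0 of the rest. The Lpin1 window held 1 AGGTCA, the Gpam window shown held 1 AGGTCA and 1 GGGCGG, and the Mogat1 window held 0 of the 4. The Mogat1 window was also poor in G and C, with 41.2% over its 250 bases against a median of 52.4% for all promoters and 66.0% for the Gpam window. The RefSeq start of Lpin1 lies upstream of the GENCODE gene model given above. AGGTCA was added to the search after the sequences were seen, and these matches are descriptions of the letters in the window.

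Levels are FPKM, fragments scaled by transcript length and by the mapped fragments of the library, so levels of different genes can be set side by side. Each library held roughly 19000000 to 26900000 fragments, as estimated from the steps between its lowest values, and 9130 to 12052 genes reached 1 FPKM. Tissue labels were checked against defining genes. The summed FPKM of 8 adipocyte markers was 18098 to 28059 in WAT and 9990 to 11056 in BAT, 338 to 385 in muscle and 9.01 to 30.4 in liver. The 6 brown fat markers summed to 1902 to 2303 in BAT, mostly Ucp1 and Cidea, and to 10.5 or less in WAT. Their sum was 42.9 to 156 in liver and 4.18 to 4.97 in muscle. Of these markers, Elovl3 was higher in liver (41.3 to 154 FPKM) than in BAT (6.52 to 18.6). Ppargc1a had 2.98 to 3.80 FPKM in muscle and 2.42 to 3.23 in BAT. Some libraries carried transcripts of another organ. In HFD-veh muscle all 10 liver markers were higher than in the other muscle libraries (sum 542, against 16.8 and 8.03), muscle markers in BAT summed to 1897, 777 and 111 in the 3 groups, and HFD-veh liver held muscle markers (60.8, against 2.10 and 3.12). In WAT, liver markers had a median of 0.00447%, 0.0721% and 0.236% of their liver level in the 3 groups. Their sum there did not follow this order, at 1061, 494 and 612 FPKM. Most of it was Cyp2e1, with 1053, 438 and 409 FPKM.

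Dgat2 was the most abundant member in both fat depots and in liver, and Lpin1 was the most abundant in muscle. In muscle 6 of the 8 members had their lowest mean level of the organs, in WAT 6 had their highest, and Gpam and Lpin1 were the members that did not follow this order at the low end. The share of all genes with these orders was not computed. A typical gene also had a higher FPKM in WAT, as described below, so the WAT count is not particular to the members. Organ differences were tested by limma on log2(FPKM + 0.1), with the 3 libraries of an organ, each from a different group of mice, as its samples and with the group as a term. The spread in this test therefore contains any response to diet or ncls that differs between organs, and SDs below are over these 3 libraries (n = 3). Most genes differ between organs in this test. The share of the 13648 tested genes that passed an adjusted p of 0.05 was 77.9% for WAT against BAT, 81.6% for WAT against liver, 82.2% for WAT against muscle, 66.3% for BAT against liver, 68.0% for BAT against muscle and 74.7% for liver against muscle. Of the 8 members, 4, 6, 6, 5, 7 and 6 passed in these pairs, in the same order. Where libraries of different organs are said below not to overlap, the share of all genes with such a gap was not computed.

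WAT values need a second reading. The median difference over all tested genes was 0.97 (WAT minus BAT), 1.00 (WAT minus liver) and 1.20 (WAT minus muscle) on the log2 scale, and 0.09 to 0.28 in the other 3 pairs, so a typical gene had a higher FPKM in WAT. With libraries rescaled by their median ratio, the share of calls that were higher in WAT went from 84.8% to 51.1% against BAT, from 80.5% to 46.2% against liver and from 82.7% to 48.7% against muscle. In BAT against muscle this share went from 62.9% to 49.6%. Relative to the typical gene, 0 members were higher in WAT than in BAT and 2 were lower (Agpat2 and Dgat1), where the deposited values gave 4 higher and 0 lower. Against liver, 3 were higher in WAT and 1 lower after rescaling, and 5 and 1 before. The members' calls against muscle kept their counts, with 6 higher in WAT before and after rescaling.

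**Figure D1:**
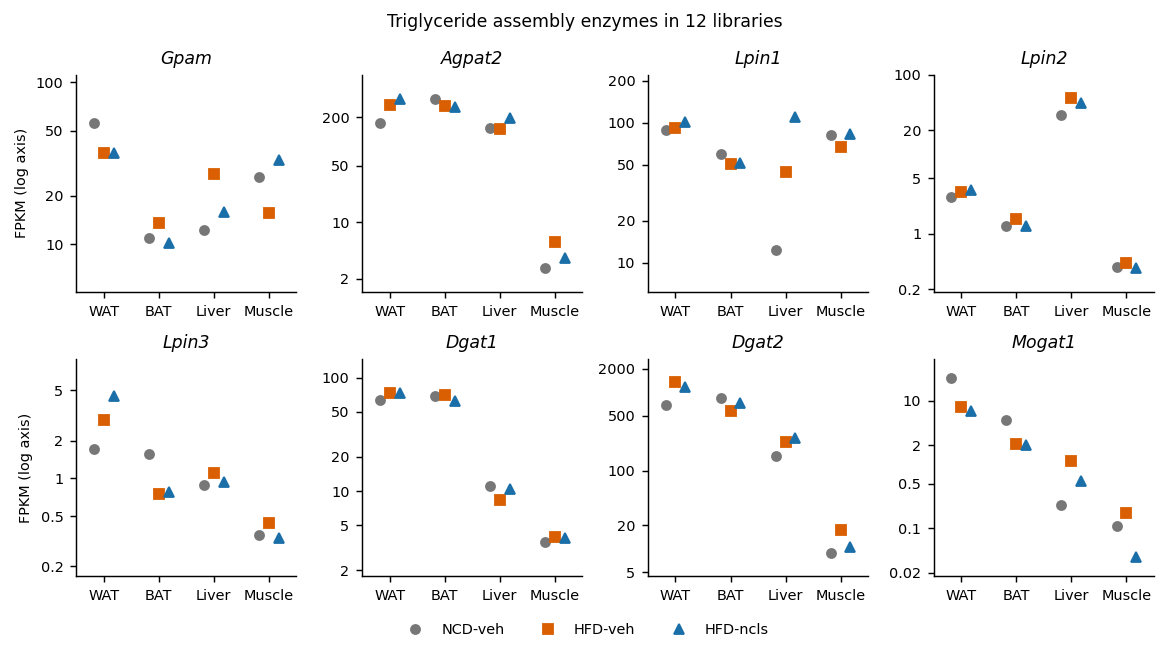
FPKM of each member (log axis, its own range in each panel) in the 12 libraries, by organ, with 1 point per library. Agpat2 and Dgat2 are lowest in muscle, Lpin2 is highest in liver, and Lpin1 in liver spans 12.4 to 110.4 FPKM over the 3 groups.

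At the GPAT step, Gpam was highest in WAT and lowest in BAT in the deposited values. WAT had 55.6, 36.6 and 36.7 FPKM of Gpam (mean 43.0 ± 10.9 SD, n = 3), and muscle had 26.1, 15.6 and 33.2. Liver had 12.2, 27.2 and 15.9, and BAT had 10.96, 13.5 and 10.2 (mean 11.53 ± 1.73). The libraries of BAT and WAT did not overlap, whereas those of liver overlapped with both BAT and muscle. Gpam was 3.66-fold higher in WAT than in BAT (log2 difference 1.87, SE 0.37, limma adjusted p = 0.00149) and 2.07-fold higher in muscle than in BAT (adjusted p = 0.0321). With rescaled libraries the WAT-BAT difference was 0.91 and no longer passed (limma adjusted p = 0.0515). Neighbours in the order WAT, muscle, liver, BAT did not pass the test, with adjusted p of 0.0667, 0.301 and 0.181. The 95% interval of the WAT minus muscle difference was -0.03 to 1.67. WAT was also above liver (1.27, adjusted p = 0.0112), but not after rescaling (0.13, adjusted p = 0.750) nor without NCD-veh (adjusted p = 0.145) or HFD-ncls (0.0519). The muscle-BAT difference was lost without NCD-veh (0.114), without HFD-ncls (0.247) and without the NCD-veh BAT library alone (0.0870). Without the HFD-veh muscle library, liver was below muscle (adjusted p = 0.0497).

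Gpam shares its step with Agpat6 (GPAT4) and Agpat9 (GPAT3), both enzymes of the endoplasmic reticulum, and with Gpat2, and the main isoform differed by organ. Gpam made up 61.4% to 77.8% of the summed GPAT FPKM in muscle and 40.7% to 43.9% in WAT, but 17.99% to 35.1% in liver and 16.2% to 20.4% in BAT. Agpat6 led in BAT (72.2% to 80.8%) and in liver (59.5% to 77.4%). Agpat9 had a sizeable share only in WAT among these organs, 25.6% to 29.8%, against 2.96% to 7.42% elsewhere. Gpat2, best known from testis, stayed at 0.871 FPKM or less in all 12 libraries. In liver the Gpam share was highest in HFD-veh, at 35.1%, with 17.99% in NCD-veh and 23.8% in HFD-ncls.

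Agpat2 was abundant in the fat depots and in liver and nearly absent from muscle. BAT had 338, 279 and 269 FPKM (mean 296 ± 37.3 SD, n = 3), WAT had 169, 283 and 334, and liver had 149, 143 and 197. Muscle had 2.74, 5.75 and 3.64 FPKM, far below every library of the other organs. The liver minus muscle difference was 5.35 (SE 0.29, 40.7-fold, limma adjusted p = 3.77e-07). BAT and WAT did not differ beyond the spread (adjusted p = 0.490, interval of WAT minus BAT -0.88 to 0.43), nor did WAT and liver (adjusted p = 0.0633), while BAT was 1.82-fold above liver (adjusted p = 0.0247). With rescaled libraries, Agpat2 was lower in WAT than in BAT (-1.19, adjusted p = 0.00617), and the BAT-liver difference no longer passed (adjusted p = 0.0583). That difference was also lost with any of the 3 groups left out (adjusted p = 0.0511 to 0.0786) and without the NCD-veh BAT library (0.108), while WAT was above liver without NCD-veh (0.87, adjusted p = 0.0322).

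The AGPAT of muscle was another isoform. Agpat1 held 61.9% to 65.2% of the summed AGPAT FPKM there, with 48.6 to 54.8 FPKM, and Agpat2 held 3.39% to 6.84%. In WAT, BAT and liver, Agpat2 held 63.2% to 76.3%, 67.1% to 72.7% and 69.1% to 75.1%. Agpat3 was second in all 12 libraries, with 20.9% to 27.6% in liver, 21.8% to 27.8% in muscle, 13.4% to 19.1% in BAT and 10.6% to 19.4% in WAT, close to Agpat1 in some libraries of the fat depots. Agpat1 itself had 52.4 to 61.8 FPKM in BAT and 36.9 to 46.1 in WAT, and its muscle range overlapped that of BAT. Agpat1 was lowest in liver, at 5.73 to 8.63 FPKM.

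At the lipin step, Lpin1 was the isoform of fat and muscle, and liver alone among the organs had a large part of Lpin2. WAT had 88.4, 91.8 and 100.5 FPKM of Lpin1, muscle had 82.0, 66.7 and 83.0, and BAT had 59.7, 50.6 and 51.8. Liver had 12.4, 44.7 and 110.4 FPKM, so the lowest and the highest Lpin1 values of all 12 libraries were both from liver. Lpin1 passed the test in 0 of 6 organ pairs by limma (4 members or more passed in each pair). At an unadjusted p under 0.05 the count was also 0, the lowest being 0.0555 for WAT against liver. Its residual SD, as moderated by limma towards the typical gene, was 0.69 on the log2 scale, against a median of 0.23 over all genes. Without the HFD-ncls group, WAT was above liver by 1.93 (adjusted p = 0.0212) and muscle was above liver, with -1.65 for liver minus muscle (adjusted p = 0.0416).

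Lpin2 separated all organs. Liver had 31.0, 50.5 and 44.3 FPKM of Lpin2 (mean 42.0 ± 9.97 SD, n = 3), WAT had 2.90, 3.34 and 3.595, BAT had 1.26, 1.52 and 1.25, and muscle had 0.379, 0.432 and 0.367. No libraries of different organs overlapped, and all 6 pairs passed the test. Of all genes, 66.3% to 82.2% passed in each single pair, and the share that passed in all 6 was not computed. Liver was above WAT 12.2-fold (log2 difference of WAT minus liver -3.61, SE 0.15, limma adjusted p = 8.24e-08), above BAT 28.7-fold and above muscle 83.8-fold. After rescaling, WAT against BAT no longer passed (0.30, adjusted p = 0.0898). The muscle values are low but rest on about 52 to 66 fragments each.

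Lpin3 stayed below 5 FPKM everywhere, yet it exceeded Lpin2 in HFD-ncls WAT and NCD-veh BAT and was level with it in HFD-veh muscle (0.439 and 0.432 FPKM). WAT had 1.71, 2.89 and 4.48 FPKM, BAT had 1.56, 0.757 and 0.781, liver had 0.893, 1.11 and 0.932, and muscle had 0.357, 0.439 and 0.335. WAT exceeded BAT 2.71-fold (limma adjusted p = 0.0057), but this difference did not pass after rescaling (adjusted p = 0.222). BAT and liver did not differ beyond the spread (interval of the log2 difference -0.82 to 0.83), and muscle was below both, 2.27-fold against BAT (adjusted p = 0.0173) and 2.26-fold against liver (adjusted p = 0.0160). With a pseudocount of 1 both muscle calls were lost, at log2 differences of 0.54 for BAT (limma adjusted p = 0.0704) and 0.52 for liver (0.0729). BAT-muscle was also lost without the filter on FPKM (0.0510). Leaving out a group changed several of these calls. WAT-BAT was lost without HFD-veh or HFD-ncls (adjusted p = 0.0718 and 0.0797), liver-muscle likewise (0.0876 and 0.0504), and BAT-muscle without HFD-veh (0.0557) or without the NCD-veh BAT library (0.0631). WAT-liver was lost after rescaling (0.363) and without HFD-ncls (0.0526).

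As a share of the 3 lipins, Lpin1 took 92.6% to 95.04% in WAT, 95.5% to 96.2% in BAT and 98.7% to 99.2% in muscle, whatever the group. In liver it took 27.9% on chow, 46.4% in HFD-veh and 70.9% under ncls, and Lpin2 took 70.0%, 52.4% and 28.5%. Lpin2 outnumbered Lpin1 2.51-fold in NCD-veh liver, both were close to equal in HFD-veh (1.13-fold), and Lpin1 outnumbered Lpin2 2.49-fold in HFD-ncls. The summed lipin level of liver went from 44.3 to 96.4 to 155.6 FPKM over the same 3 libraries. In WAT, BAT and muscle the sum stayed within 93.0 to 108.5, 52.9 to 62.5 and 67.6 to 83.7 FPKM. Each of these liver values comes from 1 library, so the order of the 3 groups has no replicate check.

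**Figure D2:**
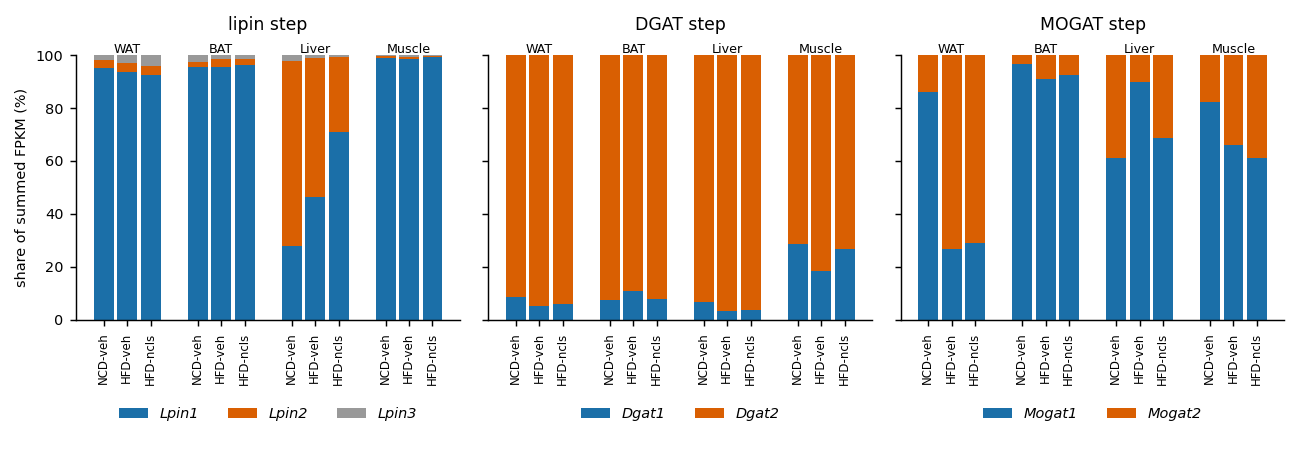
Share of the summed FPKM (percent) held by each isoform of the lipin, DGAT and MOGAT steps, with 1 bar per library. The Lpin1 part in liver is 27.9%, 46.4% and 70.9% over the 3 groups, Dgat2 leads in all 12 libraries, and the Mogat1 part in WAT is 86.0% on chow and 26.9% and 29.0% on HFD.

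At the last step, Dgat2 exceeded Dgat1 in all 12 libraries. Dgat2 had 685, 1359 and 1179 FPKM in WAT (mean 1074 ± 349 SD, n = 3), 858, 579 and 738 in BAT, and 154, 233 and 264 in liver. Muscle had 8.86, 17.2 and 10.6 FPKM. The organs stood in the order WAT, BAT, liver, muscle, and WAT and BAT overlapped and did not differ beyond the spread (limma adjusted p = 0.129, interval of the log2 difference -0.14 to 1.20). WAT was higher without NCD-veh (0.95, adjusted p = 0.0229) and without the NCD-veh BAT library alone (0.90, adjusted p = 0.00893). BAT was 3.38-fold above liver (adjusted p = 0.000692) and liver was 17.9-fold above muscle (adjusted p = 1.97e-06).

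Dgat1 was the steadiest member, with a moderated residual SD of 0.17 on the log2 scale, closely followed by Lpin2 with 0.18. Its levels were 63.6, 73.4 and 73.5 FPKM in WAT, 69.0, 69.9 and 62.5 in BAT, 11.2, 8.39 and 10.5 in liver, and 3.56, 3.91 and 3.86 in muscle. The fat depots overlapped, and liver and muscle each stood apart. WAT and BAT differed by 0.06 (interval -0.26 to 0.39, limma adjusted p = 0.703), and liver exceeded muscle 2.60-fold (adjusted p = 2.48e-05). With rescaled libraries the sign of the WAT minus BAT value turned, to -0.90 (adjusted p = 0.00064). BAT was 6.67-fold above liver for Dgat1, a larger ratio than the 3.38-fold of Dgat2, though the difference between these ratios was not tested.

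Dgat2 held 91.5% to 94.9% of the DGAT FPKM in WAT, 89.2% to 92.6% in BAT and 93.2% to 96.5% in liver. In muscle it held 71.3% to 81.4%, where it was 2.49-, 4.39- and 2.74-fold above Dgat1 in the 3 groups. The ratio was 13.8, 27.8 and 25.1 in liver, 10.8, 18.5 and 16.0 in WAT, and 12.4, 8.28 and 11.8 in BAT, so the liver and BAT libraries did not overlap, which was not tested. The lower share in muscle goes with a Dgat2 level far below that of the other organs rather than with a high Dgat1 level. Scaled by the median adipocyte marker percentages given below, WAT would supply 3.41, 22.1 and 10.1 FPKM of muscle Dgat2. The measured levels were 8.86, 17.2 and 10.6. For Dgat1, WAT would supply 0.317, 1.19 and 0.628 FPKM, with 3.56, 3.91 and 3.86 measured. The part of fat cells in the muscle share was not tested.

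Mogat1 was highest in WAT and scarce in liver and muscle. WAT had 22.8, 8.05 and 6.77 FPKM (mean 12.5 ± 8.89 SD, n = 3), and BAT had 4.97, 2.12 and 2.01. Liver had 0.234, 1.14 and 0.546 FPKM and muscle 0.110, 0.175 and 0.0355. The 4 organs did not overlap, and all 6 pairs passed the test, beside 66.3% to 82.2% of all genes in each single pair. WAT exceeded BAT 3.78-fold (log2 difference 1.92, SE 0.57, limma adjusted p = 0.0133) and liver 16.8-fold (adjusted p = 0.00015). Rescaling removed the WAT-BAT call (adjusted p = 0.178), and leaving out HFD-ncls removed those of WAT-BAT (0.0735) and BAT-liver (0.0550). The liver values correspond to about 6.73, 32.8 and 15.7 fragments and the muscle values to about 3.39, 5.78 and 1.10, so counting error is large there, and the liver-muscle difference (adjusted p = 0.0241) was lost with a pseudocount of 1 (adjusted p = 0.220), without HFD-veh (0.0889) and without HFD-ncls (0.181).

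**Figure D3:**
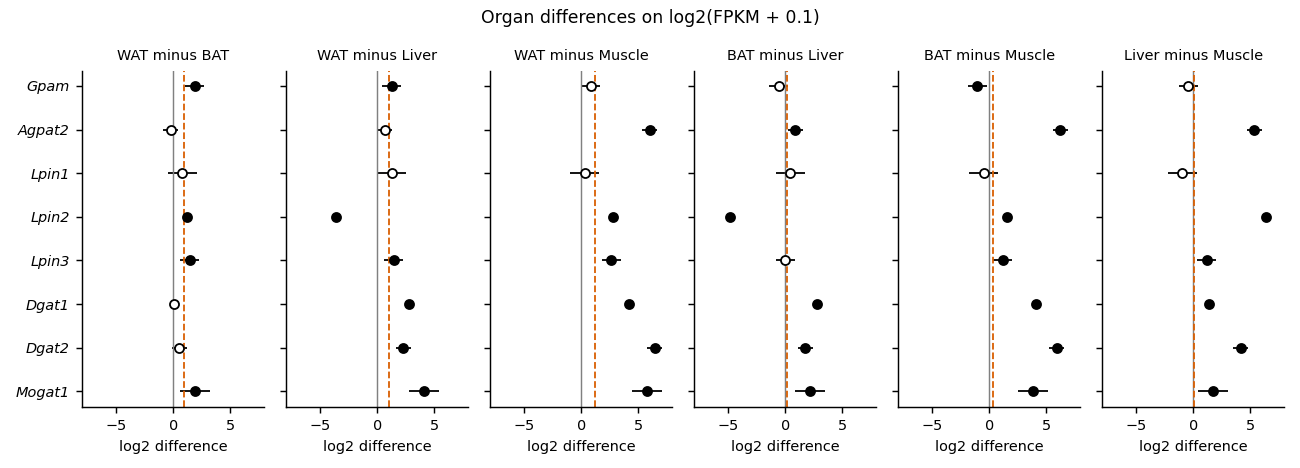
Log2 difference of each member between 2 organs with its 95% interval from limma (filled points, adjusted p under 0.05; open points, not). The dashed line is the median difference of all 13648 genes, near 1 in the WAT pairs; Lpin2 lies far to the liver side, and Lpin1 is open in all 6 panels.

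Diet and ncls were compared within each organ as log2 ratios, 1 library against 1, so these ratios have no test and no error. A member counted as past the threshold when it differed over 1.4-fold and reached 1 FPKM in at least 1 of the pair, and the share of all genes past the threshold is given beside each count. Both comparisons use the same HFD-veh library, which ties their values together: a high or low value there moves the ratios in opposite directions.

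In WAT, HFD-veh against NCD-veh put 5 of 8 members past 1.4-fold, against 29.3% of 12208 genes. Dgat2 was 1.98-fold higher (log2 ratio 0.99), Agpat2 (0.75) and Lpin3 (0.72) were also higher, and Gpam (-0.60) and Mogat1 (-1.49) were lower. The other 3 members, Lpin1, Lpin2 and Dgat1, lay between 0.05 and 0.20. Mogat1 stood out most, with a lower ratio for 146 of the 12208 genes. Its relative Mogat2, the main intestinal MOGAT, went the other way, from 3.71 to 21.9 FPKM (log2 ratio 2.53). The summed MOGAT level was 26.5 and 30.0 FPKM, so the sum differed little while Mogat1 went from 86.0% to 26.9% of it. In HFD-ncls WAT, Mogat2 had 16.6 FPKM and Mogat1 held 29.0%. The same diet comparison also went with macrophage markers, of which 5 of 6 were higher (Cd68 49.5 and 198 FPKM, sums of the 6, 628 and 876), and with adipocyte markers, of which 6 of 8 were lower (sums 28059 and 19671 FPKM). Most of the fall in the adipocyte sum came from Cfd (8163 and 653 FPKM), and Cidec and Lep were higher. Of 9 liver markers, 8 were higher (median log2 ratio 3.37, Alb 4.79 and 25.7 FPKM). The part of these cells in the members' values was not tested. In bulk tissue, fewer cells of a type and less RNA per cell cannot be told apart.

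In BAT, 3 of 8 members were past the threshold, against 17.6% of 10444 genes. All 3 were lower on HFD, beside 8.23% of all genes lower. Mogat1 (-1.19), Lpin3 (-0.95) and Dgat2 (-0.57) were lower in HFD-veh, and the other 5 lay between -0.28 and 0.30. Mogat1 was thus lower on HFD in both fat depots, whereas Lpin3 and Dgat2 were higher in WAT and lower in BAT. Among the BAT libraries Lpin3 reached 1 FPKM in NCD-veh alone, so it was counted only through the group where it was high. It had about 136 fragments in NCD-veh and 66 in HFD-veh BAT. In HFD-veh BAT, 6 of 8 adipocyte markers were lower as well (sums 11056 and 9990 FPKM), and their part in these values was not tested. All 8 muscle markers were also lower. At the median marker percentage, muscle RNA would amount to 0.175 FPKM of the 858 of Dgat2 and 0.00705 of the 1.56 of Lpin3 in NCD-veh, and its part was not tested.

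Liver had the largest diet ratios. Of 8 members, 5 were past 1.4-fold, all higher in HFD-veh, against 23.8% of 10016 genes in either direction and 13.3% higher. Mogat1 (1.89), Lpin1 (1.85) and Gpam (1.15) were over 2-fold higher, followed by Lpin2 (0.70) and Dgat2 (0.60). Of the 10016 genes, 72 had a higher ratio than Lpin1. The 3 not past the threshold were Lpin3 (0.29), Agpat2 (-0.06) and Dgat1 (-0.41). At the AGPAT step, Agpat2 had 149 and 143 FPKM, while 2 of its 4 partners with at least 1 FPKM were higher, Agpat5 (0.60) and Lclat1 (0.66), named after their values were seen. Mogat1 reached 1 FPKM in HFD-veh alone among the liver libraries, so it was counted only through the library where it was high. Its ratio was 0.79 with a pseudocount of 1. The muscle transcripts of HFD-veh liver came to a median of 0.0640% of the muscle level, which would be 0.0427 of the 44.7 FPKM of Lpin1 and 0.00996 of the 27.2 of Gpam. Of the adipocyte markers, Adipoq, Lep and Retn were listed at 0 in all 3 liver libraries. The 4 that reached 1 FPKM (Cidec, Cfd, Fabp4 and Pparg) were all higher in HFD-veh than in NCD-veh. Cfd had 0.163, 10.2 and 5.71 FPKM, and Cidec, which hepatocytes can also express, had 1.75, 5.88 and 2.43. As a median, the 8 adipocyte markers had 0.0302% of their WAT level in HFD-veh liver (range 0% to 6.88%). At that percentage WAT would supply 0.0277 FPKM of Lpin1, 0.0110 of Gpam and 0.00243 of Mogat1. The part of muscle or fat RNA in these liver values was not tested.

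In muscle, Lpin2, Lpin3 and Mogat1 stayed under 1 FPKM and were not counted. Of the other 5 members, 3 were past the threshold, against 13.3% of 9587 genes. Agpat2 (1.04) and Dgat2 (0.95) were higher in HFD-veh and Gpam (-0.74) was lower, while Dgat1 (0.13) and Lpin1 (-0.30) were not past it.

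**Figure D4:**
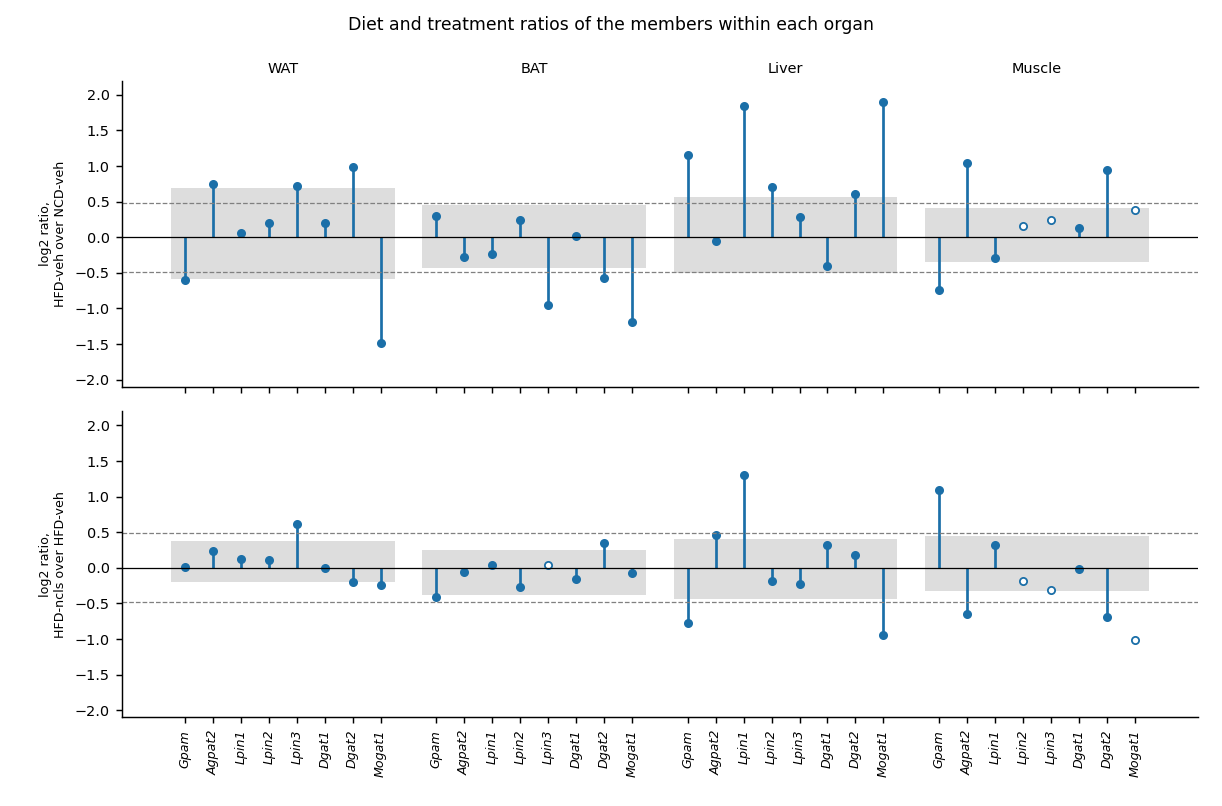
Log2 ratios of the members within each organ, HFD-veh over NCD-veh (top) and HFD-ncls over HFD-veh (bottom), from 1 library each. Grey bands hold the middle 80% of all genes with at least 1 FPKM, dashed lines mark 1.4-fold, and open points are members under 1 FPKM in both libraries; Lpin1 and Mogat1 in liver lie farthest from 0 in the top row, at 1.85 and 1.89.

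Between HFD-ncls and HFD-veh, the counts in the fat depots were close to the share of all genes. In WAT 1 of 8 was past 1.4-fold (Lpin3, 0.61, from 2.89 to 4.48 FPKM), against 7.68% of 12152 genes. In BAT 0 of 7 members with 1 FPKM were past it, against 8.53% of 10331 genes, and the values ran from -0.40 (Gpam) to 0.35 (Dgat2). In WAT, Gpam had 36.6 and 36.7 FPKM in the HFD groups, and Mogat1 had 8.05 and 6.77. Of the liver markers, 9 of 10 were higher in HFD-ncls than HFD-veh WAT (Alb 25.7 and 94.1 FPKM), and their part in the WAT values was not tested.

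In liver, 3 of 8 members were past the threshold, against 14.9% of 9956 genes. Lpin1 was higher again (1.30, from 44.7 to 110.4 FPKM), with a higher ratio for 49 genes. Gpam (-0.77) and Mogat1 (-0.94) were lower, with Gpam at 15.9 FPKM against 12.2 in NCD-veh. With a pseudocount of 1 the Mogat1 ratio was -0.47 and not past the threshold, since it rests on 1.14 and 0.546 FPKM. Here too Mogat1 was counted only through HFD-veh. Between these liver libraries, 7 of 7 muscle markers (median log2 ratio -5.62), 5 of 5 macrophage markers (-0.33) and 3 of 4 adipocyte markers (-0.54) were also lower under ncls, and their part was not tested. Agpat2 (0.47) and Dgat1 (0.33) were higher by less than 1.4-fold, and Lpin2, Lpin3 and Dgat2 lay between -0.23 and 0.18. Lpin1 and Lpin2, both higher on HFD, therefore parted under ncls, at 1.30 and -0.19. Of the members with a diet ratio above 1 on the log2 scale, Lpin1 lay further from NCD-veh in HFD-ncls than in HFD-veh. Gpam and Mogat1 lay nearer to NCD-veh. These members were picked by a high HFD-veh value, which is also the base of the ncls ratio, so a return is favoured by the choice. For Mogat1 the 3 liver values rest on about 6.73, 32.8 and 15.7 fragments. Whether these members differ in their response was not tested.

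In muscle, 3 of 5 members were past the threshold, against 13.9% of 9694 genes. Gpam was higher (1.09, from 15.6 to 33.2 FPKM), with a higher ratio for 95 genes, and Agpat2 (-0.65) and Dgat2 (-0.69) were lower. These are the 3 members past the threshold in the diet comparison, each with the opposite sign. The HFD-veh library, in which liver transcripts were found, is common to both comparisons. Between the other 2 muscle libraries, Gpam had 26.1 and 33.2 FPKM, Agpat2 2.74 and 3.64, and Dgat2 8.86 and 10.6.

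Adipocyte markers moved with Agpat2 and Dgat2 in muscle. In the 3 muscle libraries, Adipoq had 11.4, 21.1 and 14.3 FPKM, Plin1 2.02, 4.97 and 3.36, and Cidec 5.89, 15.2 and 9.77. Of the 8 adipocyte markers, 7 were higher in HFD-veh than in NCD-veh, and under ncls 6 were lower than with vehicle on HFD. Cfd was the exception in both, with 76.7, 33.4 and 43.9 FPKM, and Fabp4 also was not lower in HFD-ncls. The summed level of the 8 changed less, at 338, 385 and 374 FPKM, since Fabp4 and Cfd make up most of it. As a median, the markers had 0.498%, 1.63% and 0.855% of their level in WAT, with a range of 0.420% to 5.11% over markers in HFD-veh. At these percentages, WAT would supply 0.840, 4.61 and 2.85 FPKM of Agpat2, where 2.74, 5.75 and 3.64 were measured, and 3.41, 22.1 and 10.1 FPKM of Dgat2, where 8.86, 17.2 and 10.6 were measured. For Gpam the amount would be 0.277, 0.594 and 0.314 FPKM. The part of fat cells in the muscle values was not tested.

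The liver transcripts of HFD-veh muscle bear on the same values. As a median, 9 liver markers had 0.665% of their HFD-veh liver level there (range 0.518% to 0.759%), against 0.00263% in NCD-veh and 0.000665% in HFD-ncls muscle. At that percentage liver would supply 0.949 of the 5.75 FPKM of Agpat2, 1.55 of the 17.2 of Dgat2 and 0.181 of the 15.6 of Gpam. Lpin2, the member with the highest liver level relative to muscle, would receive 0.336 FPKM. It had 0.432 in HFD-veh muscle, against 0.379 and 0.367 in the other libraries. The part of liver RNA in the muscle values was not tested.

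**Figure D5:**
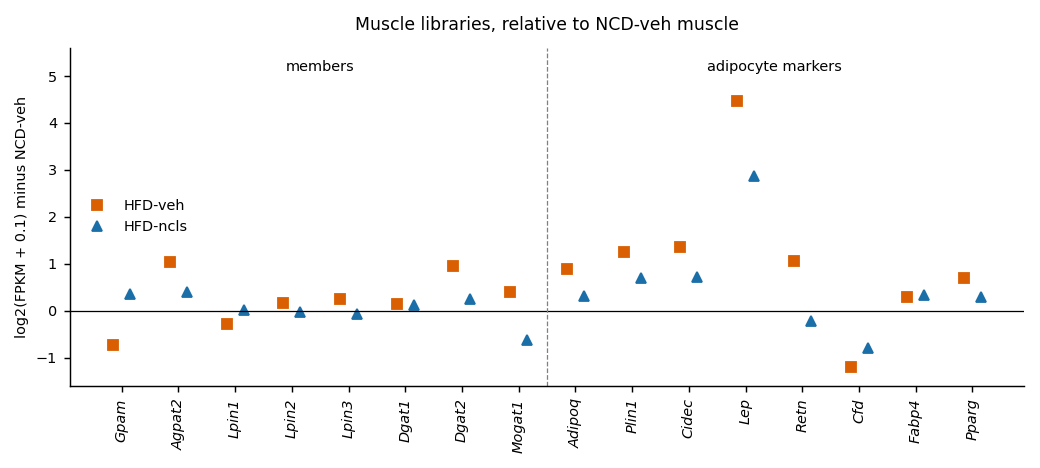
Log2(FPKM + 0.1) in HFD-veh and HFD-ncls muscle minus NCD-veh muscle, for the 8 members and the 8 adipocyte markers, with 1 point per library. Agpat2 and Dgat2 are near 1 in HFD-veh and lower in HFD-ncls, as are Adipoq, Plin1 and Cidec, while Gpam is at -0.74 and 0.35.

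The wider pathway was described by 38 genes in 7 lists. In WAT, HFD-veh against NCD-veh had 9 higher and 4 lower past 1.4-fold of 30 with at least 1 FPKM. That is 13 of 30, beside 29.3% of all genes. Among the genes that supply glycerol 3-phosphate, Gpd1, which makes it from a glycolytic intermediate, had 234 and 553 FPKM, and Gyk (glycerol kinase) had 1.45 and 4.08, both higher on HFD. Pck1, which makes it from pyruvate-derived carbon, was lower, at 836 and 141 FPKM (log2 ratio -2.57), and Gpd2, the mitochondrial dehydrogenase that consumes it, was lower at 14.6 and 7.15. Soat1, a sterol acyltransferase that is also present in macrophages, had 2.81 and 8.47 FPKM. Agpat9 and Gpd1l were the other 2 that were lower. HFD-ncls WAT had 146 FPKM of Pck1 and 519 of Gpd1. Between HFD-ncls and HFD-veh WAT, 1 of 29 pathway genes was past the threshold, beside 7.68% of all genes, which was Pnpla3 (58.4 FPKM in HFD-veh, 101.4 in HFD-ncls).

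In liver, 10 of 27 pathway genes were higher and 2 lower on HFD, beside 13.3% of all genes higher and 10.5% lower, and 3 of the 4 acyl-CoA synthetases (which activate fatty acids) were higher. Acsl3 had 3.29 and 7.37 FPKM in NCD-veh and HFD-veh, and Gpd2 had 3.498 and 7.52. Ppap2c and Soat2 were the 2 lower genes. Between HFD-ncls and HFD-veh liver, 0 genes were higher and 3 were lower of 27, Agpat9, Gyk and Apob, the last encoding the protein of very-low-density lipoprotein, at 167 and 357 FPKM. The share of all genes past the threshold there was 14.9%, with 6.88% higher.

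In BAT, 5 of 28 pathway genes were higher and 4 lower on HFD (17.6% of all genes in either direction), with Agpat9 at 2.01 and 4.90 FPKM past 2-fold. Between HFD-ncls and HFD-veh BAT, 0 were higher and 5 were lower (Ppap2a, Gyk, Gpd1, Gpd2 and Fitm1), beside 8.53% of all genes. Fitm1, a lipid droplet protein that is abundant in muscle, had 4.40, 2.79 and 0.570 FPKM in BAT, and the BAT muscle markers had the same order. Muscle had 5 higher and 2 lower of 26 on HFD, and 1 higher and 4 lower under ncls, beside 13.3% and 13.9% of all genes. Pck1 (4.89, 12.6 and 5.89 FPKM) was highest in HFD-veh, as were the liver markers and most adipocyte markers. HFD-veh liver had 850 FPKM of Pck1 and HFD-veh WAT had 141. Apob (0.00268, 1.10 and listed at 0) followed the liver markers, and Pnpla3 had 1.66 FPKM in HFD-veh and 0.627 with ncls. The part of other cells' RNA in these values was not tested. Agpat9 and Gpd1l in WAT, Pnpla3 in WAT, Ppap2c, Soat2, Agpat9 and Gyk in liver and the first 4 of the 5 BAT genes were named after their values were seen.

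The genes most like each member over the 12 libraries were found by Pearson's r on log2(FPKM + 0.1). These correlations are descriptions, as the 12 points fall into 4 organs whose differences set most of each r. Lpin2 had the closest matches, Slc2a9 (r = 0.997), Ptplad1 (0.996) and Tspan31 (0.995), all highest in liver. Dgat1 was matched by Mtch1 (0.995), Aifm2 (0.995) and Ppp2r5a (0.993), and Agpat2 by Sat1 (0.994), L3hypdh (0.992) and Ifnar2 (0.992), which were all low in muscle. Dgat2 was nearest to Efna5, Ctnnbl1 and Cgnl1 (0.990 to 0.988), Mogat1 to D3Ertd751e, Mccc1 and Fam149b (0.988 to 0.986), Lpin3 to Etv6, Ada and Sh3gl1 (0.970 to 0.966), and Gpam to Iws1 (0.968) and Msl3 (0.967). Lpin1 had the loosest matches, 3110082I17Rik (0.856), Snupn (0.852) and Dnajb6 (0.852). Ranked by Spearman's rho instead, the genes named for Agpat2, Lpin3, Dgat1 and Dgat2 were no longer among the closest matches. Those of Gpam stayed there, and Lpin1, Lpin2 and Mogat1 each kept 1. Among the members themselves, Agpat2 and Dgat2 were most alike (r = 0.970), followed by Dgat1 and Dgat2 (0.929), and Lpin1 and Lpin2 were the least alike (-0.350).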

How the data were processed

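RNA-seq libraries of 4 organs and 3 groups were used, with 1 library each. Reads were mapped by the authors with TopHat on the mm9 genome, RefSeq genes were quantified with Cufflinks, and the deposited values are FPKM, with no further scaling between libraries stated. Strand handling is not given in the sources used here. The members and gene lists were chosen with earlier results of these data known, and the shares of the GPAT, AGPAT and MOGAT steps were added after the values were seen.

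FPKM was analysed as log2(FPKM + 0.1), which understates changes of low genes, for genes with at least 1 FPKM in at least 1 library compared. Organ pairs were tested with limma 3.58.1 in R 4.3.3 (organ and group as terms, 6 residual degrees of freedom, Benjamini-Hochberg over 13648 genes, threshold 0.05). No source says whether libraries hold separate mice or pools, so p-values measure the spread between these libraries. Diet and ncls ratios have no test. All members, pathway genes past 2-fold, partner isoforms and the 3 genes most alike each member were named, of which 1 is not reported here. Of 22276 symbols, 86 lacked a value in at least 1 library. The fit and the ratios were tested on simulated data. Python 3.11.15, numpy 2.4.6, pandas 2.3.3 and matplotlib 3.10.9 were used. Depth is approximate, and FPKM files give no counts, so no counting interval is given. Gene positions are from GENCODE vM1.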

Additional observations from a re-analysis of the deposited data

Results flagged for a closer look

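Opposite diet ratios in 2 organs were found for 4 members, with 1 library per organ and group, and none of these differences between organs was tested. Mogat1 was higher on HFD in liver (1.89) and lower in WAT (-1.49), a difference of 3.38 on the log2 scale. In liver, Mogat1 reached 1 FPKM only in HFD-veh. Gpam was higher in liver (1.15) and lower in muscle (-0.74), a difference of 1.89. Lpin3 was higher in WAT (0.72) and lower in BAT (-0.95), a difference of 1.68, and Dgat2 was higher in WAT (0.99) and lower in BAT (-0.57), a difference of 1.56. In BAT, Lpin3 reached 1 FPKM only in NCD-veh. Between HFD-ncls and HFD-veh, Gpam was higher in muscle (1.09) and lower in liver (-0.77), a difference of 1.86, which was not tested either.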

How the results depend on the processing

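Most values kept their direction and side of the threshold. For single members, 521 of the organ differences computed under alternatives were unchanged in call, 34 no longer passed and 14 newly passed. The remaining 1 passed with the opposite sign, which was Dgat1 in WAT minus BAT with rescaled libraries (-0.90). Sign changes of differences that did not pass were not counted. The count of members called in WAT against BAT, 4, was 2 with rescaled libraries and 2 to 5 with each group left out in turn, the lowest without HFD-ncls. For BAT against liver, 5 became 3 to 4 with a group left out. With a 2-fold threshold, the diet counts of 5, 3, 5 and 3 in WAT, BAT, liver and muscle became 1, 1, 3 and 1, and the ncls counts of 1, 3 and 3 in WAT, liver and muscle became 0, 1 and 1. The shares of all genes past 2-fold were 9.11%, 4.29%, 5.12% and 4.11% on HFD, and 1.70%, 2.31% and 3.80% under ncls. With a minimum of 5 FPKM, the HFD counts in WAT, BAT and liver were 4, 1 and 4 (25.2%, 15.3% and 21.5% of all genes), and the ncls counts in WAT and liver were 0 and 2 (3.71% and 10.3%). With a pseudocount of 1, the ncls count in liver was 2 (8.03%). The mean Lpin1 share in muscle was 98.7% with 0.1 FPKM added to each isoform, against 99.0%. Calls without HFD-veh muscle or without NCD-veh BAT, chosen after seeing the data, changed for Gpam in liver against muscle (adjusted p = 0.0497, limma) and for Dgat2 in WAT against BAT (0.00893), among others. No paired analysis was possible because the labels carry no replicate numbers that pair libraries. Depth limits Mogat1 in liver and muscle.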
